A study of Homo sapiens with 22 samples.

Results

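A set of 10 genes for secreted glycoproteins of the extracellular matrix were followed through 22 RNA-seq libraries of 2 human neuroblastoma cell lines: fibronectin (FN1), tenascin-C (TNC), SPARC, the thrombospondins THBS1 and THBS2, periostin (POSTN), TGFBI, versican (VCAN), fibrillin-1 (FBN1) and fibulin-1 (FBLN1). They were chosen by symbol, and all 10 were found among the 35237 rows of the count table. SK-N-AS and GIMEN are established lines of neuroblastoma, a childhood tumour arising from sympathetic precursors, and the labels class both as MES. PP121 is an inhibitor of tyrosine kinases and phosphoinositide kinases, and bufalin is a cardiac glycoside that blocks the sodium pump. Untreated SK-N-AS cells grew in DMEM with 10% fetal bovine serum (n = 4). The group S1D4 received 5 µM PP121 in 1% serum for 4 days (n = 4). S2D4 and S2D30 are cells that had passed through that first stage and were then held in serum-free Neurobasal medium with B27, 5 µM PP121 and 100 nM bufalin, for 4 days (n = 4) or 30 days (n = 4). GIMEN cells were untreated in RPMI with 10% serum (n = 3), or were kept for 30 days in RPMI with 1% serum, 2.5 µM PP121 and 10 nM bufalin (D30, n = 3). Serum and, in SK-N-AS, medium changed together with the drugs, and dose and medium differed between the lines, so these cannot be told apart from drug or line. Nothing in the labels says that replicates were separate cultures, so p-values measure the spread between these libraries, which may be technical.

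Matrix glycoproteins are large modular proteins that cells secrete and assemble around themselves. Fibronectin and fibrillin-1 form fibrils to which other components and growth factors bind, and integrins on the cell surface hold the cell to them. Tenascins, thrombospondins, SPARC and periostin are often called matricellular, because they modulate how cells attach and signal rather than forming the scaffold. In neuroblastoma, matrix genes including FN1 are commonly listed among markers of the mesenchymal state, as opposed to the adrenergic state.

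Total counts per library ran from 16456484 to 37506800. S2D4 replicate 4 stood apart: its log2 CPM correlated at 0.967 to 0.968 with the other S2D4 libraries and at 0.940 to 0.947 with S1D4, so S2D4 against untreated cells, and the counts of called members in other comparisons with S2D4, are also given without it. Of 15 mesenchymal markers, 14 were above the floor in untreated SK-N-AS (summed level 1194 to 1674 CPM) and 10 in untreated GIMEN (7554 to 7881 CPM). Of 13 tested between the untreated lines, 9 were called higher in GIMEN (69.2% beside 35.3% of all genes) and 4 lower (30.8% beside 38.6%). The floor means at most 3 counts in every library of a group. Of 11 adrenergic markers, 11 were above it in untreated SK-N-AS (summed level 1683 to 1915 CPM), against 6 in untreated GIMEN (452 to 475 CPM), where TH and DDC, enzymes of catecholamine synthesis, were among those at the floor. The label MES is thus borne by a line with every adrenergic marker of the list detected. In SK-N-AS the adrenergic sum was 214 to 265 CPM in S2D30, and in GIMEN it was 247 to 295.5 CPM in D30. Of the 11 tested in SK-N-AS, 10 were called lower in S2D30 (90.9% beside 36.5% of all genes) and 0 higher. Of 5 tested in GIMEN, 1 was higher (20% beside 35.5%) and 2 were lower (40% beside 36%). The sum over 10 leukocyte markers also changed with treatment, from 160 to 208 CPM in untreated SK-N-AS to 4.56 to 7.39 CPM in S2D30. In untreated cells most of it was PTPRC (177 CPM), while CD3E, CD3D, MS4A1, FCGR3A and ITGAM were among those at the floor. In S2D30 PTPRC was at 0.850 CPM, the smaller part of the sum. The part of these shifts in the results below was not tested, and fewer cells of a type cannot be told apart from less RNA per cell.

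The promoters of 4 members are shown because TNC and THBS2 were the members that rose in both lines, FN1 had the widest range of levels, and THBS1 is the paralogue of THBS2 with a different course. Each is the 250 bases before the RefSeq gene start (GRCh38.p14), 5′ to 3′ on the gene's strand, with capitals for a TATA-like motif (searched on the gene's strand as TATAAA, with the variant spelling TATATA and the longer spelling ATATAAG), for TGACGTCA, the cyclic AMP response element, in FN1, and for GGAATG or its reverse complement, a TEAD motif, in THBS1 and THBS2.
TNC, chr9:115118158-115118407, minus strand: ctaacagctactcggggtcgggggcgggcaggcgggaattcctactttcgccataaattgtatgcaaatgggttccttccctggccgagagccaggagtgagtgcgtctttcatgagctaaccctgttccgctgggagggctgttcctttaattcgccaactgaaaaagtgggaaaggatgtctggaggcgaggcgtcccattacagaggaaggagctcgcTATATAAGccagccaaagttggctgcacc
THBS2, chr6:169253847-169254096, minus strand: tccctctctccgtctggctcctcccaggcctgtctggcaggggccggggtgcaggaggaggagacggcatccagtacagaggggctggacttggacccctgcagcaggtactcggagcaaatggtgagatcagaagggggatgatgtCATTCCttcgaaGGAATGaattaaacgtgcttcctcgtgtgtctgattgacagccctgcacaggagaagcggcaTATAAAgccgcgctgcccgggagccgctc
FN1, chr2:215436069-215436318, minus strand: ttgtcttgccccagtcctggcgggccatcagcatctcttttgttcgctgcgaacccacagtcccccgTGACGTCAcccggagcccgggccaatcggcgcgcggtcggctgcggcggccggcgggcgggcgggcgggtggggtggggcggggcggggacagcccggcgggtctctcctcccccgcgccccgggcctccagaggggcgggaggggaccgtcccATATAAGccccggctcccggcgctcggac
THBS1, chr15:39580829-39581078, plus strand: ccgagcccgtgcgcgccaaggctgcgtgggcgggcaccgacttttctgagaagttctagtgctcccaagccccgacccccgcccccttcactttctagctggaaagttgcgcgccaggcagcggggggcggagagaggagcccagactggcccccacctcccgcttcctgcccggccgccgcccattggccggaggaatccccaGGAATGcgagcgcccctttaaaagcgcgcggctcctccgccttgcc
A TATA-like motif was found in 4 of the 10 members, FN1, TNC, THBS2 and POSTN, and in 3525 of 35116 RefSeq promoter windows (10%). These 3 spellings overlap: in TNC, TATATA begins 29 bases and ATATAAG 28 bases before the start. TGACGTCA was found on either strand in FN1 alone among the members, beginning 183 bases before the start, and in 1.65% of windows. GGAATG, on either strand, was in SPARC, THBS1, THBS2 and FBN1 and in 11.9% of windows, and THBS2 held it as an inverted pair. The SMAD-type motif CAGACA, on either strand, was in TNC and THBS2 and in 13.6% of windows. The motif TGANTCA of AP-1, the same on both strands with any base at N, was found in POSTN alone among the members and in 6.57% of windows. GGGCGG, the GC box, was in 6 members and in 42.6% of windows. These are matches of letters and were not measured as bound sites. GENCODE 29 places the first base of TNC, THBS2 and FN1 farther upstream than RefSeq does, within the windows shown.

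On GENCODE 29 (GRCh38), the genes lie at chr2:215360440-215436172 (FN1), chr9:115019578-115118257 (TNC), chr5:151661096-151687165 (SPARC), chr15:39581079-39599466 (THBS1), chr6:169215780-169254044 (THBS2), chr13:37562583-37598844 (POSTN), chr5:136028895-136063818 (TGFBI), chr5:83471465-83582303 (VCAN), chr15:48408306-48645849 (FBN1) and chr22:45502238-45601135 (FBLN1). All 10 are protein-coding. Genes on the opposite strand overlap 7.89% of the exonic bases of SPARC, 7.58% of THBS1, 3.05% of VCAN and 1.34% of TNC, and none of the other members. Whether counting used strand is not given in the sources used here, so reads of these overlaps cannot be told apart. The build behind the counts is likewise not given.

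The order of the members differed between the lines and changed with treatment. Levels are compared between genes as CPM per kilobase of the principal transcript. In untreated SK-N-AS, SPARC, a collagen-binding matricellular protein, was first at 55.6 ± 13.1 (SD, n = 4) CPM per kb, followed by FBLN1 at 19.8 ± 1.88 and VCAN at 12.3 ± 4.19. FN1 was the fourth at 7.63 ± 2.34, and FBN1 and THBS2 were last at 0.190 ± 0.0435 and 0.0961 ± 0.0620. Each pair of neighbours below SPARC overlapped in range, except POSTN and FBN1. In S1D4, THBS1 (23.3 ± 6.61) and SPARC (23.2 ± 2.38) led and overlapped. TNC had the highest mean in S2D4, 110.5 ± 69.4, but its range (7.59 to 159) overlapped THBS1 (31.8 to 34.8) and SPARC (25.7 to 30.8), and in replicate 4 it was below both. TNC was first in S2D30, at 85.6 ± 18.3, where SPARC (14.01 ± 1.26) and THBS2 (7.37 ± 1.41) came next without overlap. In GIMEN, FN1 was first by far, at 3987 ± 133 CPM per kb untreated and 2281 ± 148 in D30 (n = 3 each), and SPARC was second at 375 ± 8.07 and 186 ± 5.34. TNC went from the seventh place in untreated GIMEN (8.78 ± 0.642) to the third in D30 (87.7 ± 9.46).

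**Figure D1:**
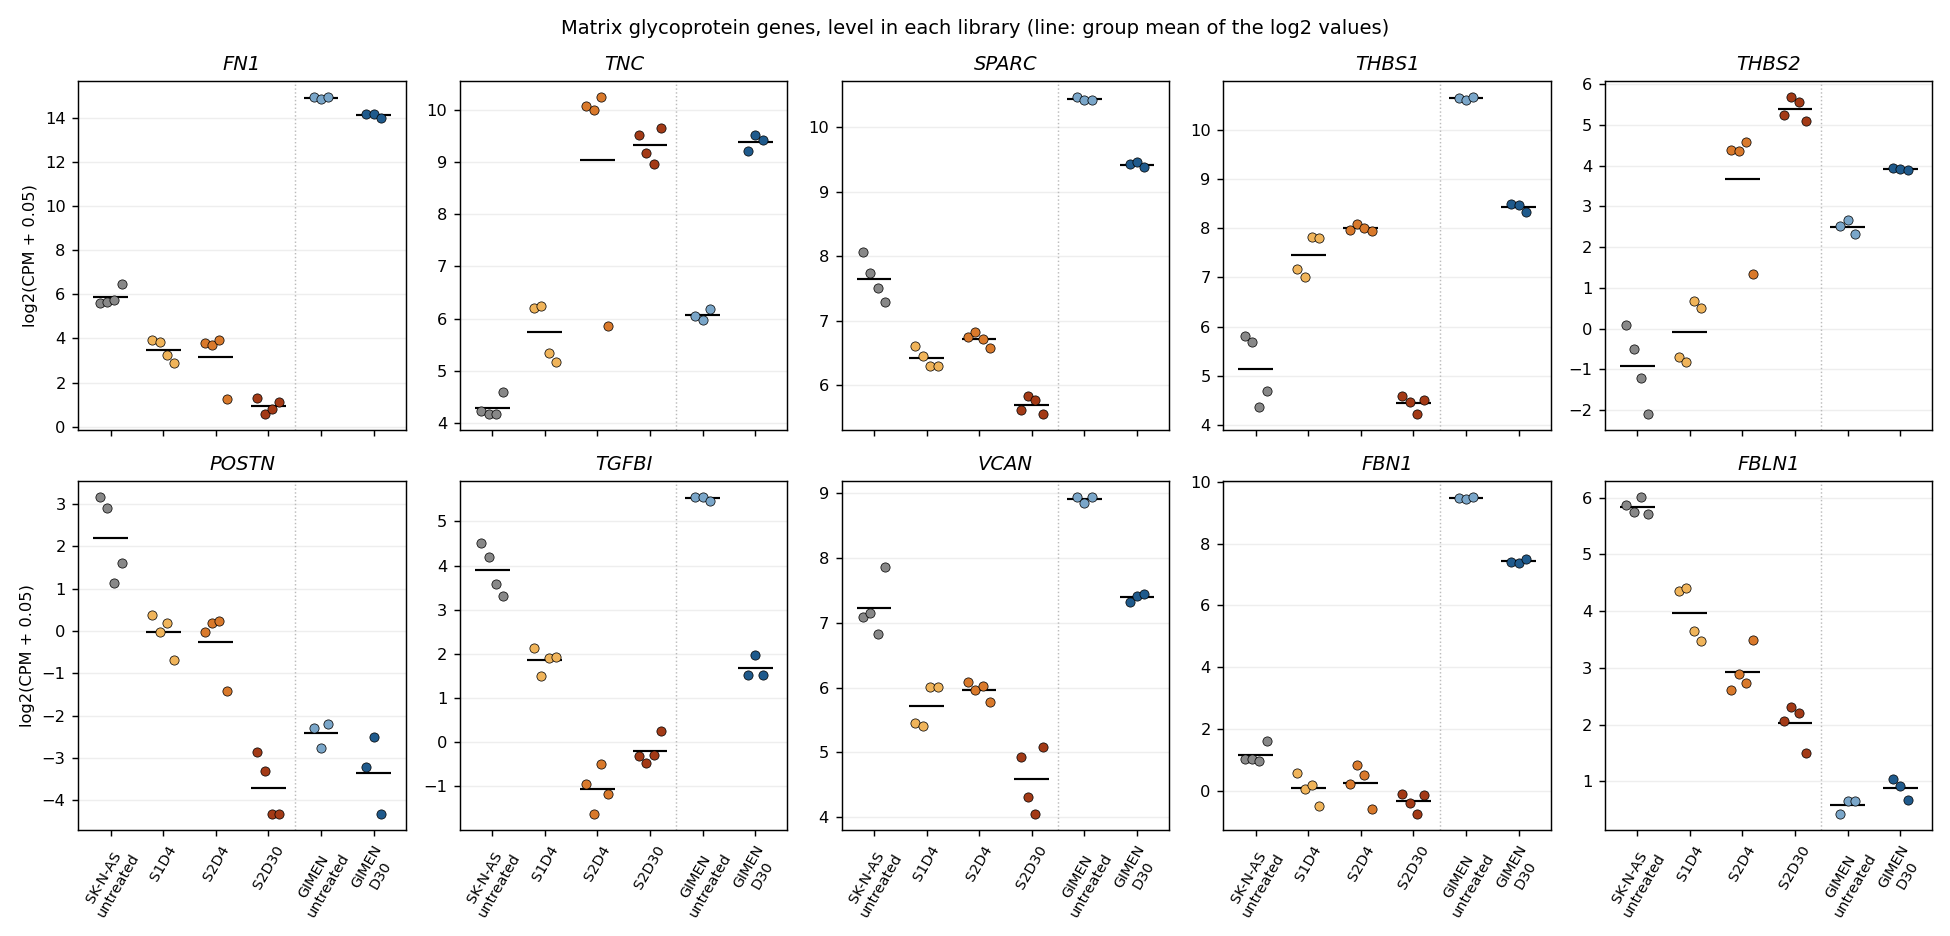
Level of each gene in each of the 22 libraries, as log2(CPM + 0.05), by group, with 1 point per library and a line at the mean of the log2 values of a group. TNC and THBS2 are high in both 30-day groups, and FN1 is far higher in GIMEN than in SK-N-AS. S2D4 replicate 4 is the low point of its group for every gene except TGFBI and FBLN1.

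FN1 encodes fibronectin, the main adhesive fibril of provisional matrix. It fell with every treatment. In untreated SK-N-AS it was at 49.4, 49.9, 54.1 and 87.8 CPM, in S1D4 at 15.4, 14.5, 9.32 and 7.32 CPM, in S2D4 at 14.02, 12.8, 15.2 and 2.37 CPM, and in S2D30 at 2.37, 1.43, 1.68 and 2.09 CPM. No treated SK-N-AS library reached the lowest untreated one. The log2 fold change was -2.40 ± 0.40 (SE; adjusted p = 0.000170) in S1D4, -2.49 ± 0.40 (adjusted p = 4.62e-05) in S2D4 and -5.02 ± 0.47 (adjusted p = 6.02e-08) in S2D30. All adjusted p-values are from edgeR's quasi-likelihood test with Benjamini-Hochberg adjustment over all genes tested. Without S2D4 replicate 4, the S2D4 value was -2.14 (adjusted p = 8.89e-07). Between S1D4 and S2D4 no difference was called (log2 fold change -0.09, 95% interval -0.92 to 0.74, adjusted p = 0.867), and without that library the estimate was 0.26 (adjusted p = 0.362). In GIMEN, FN1 was at 31991, 30286 and 32195 CPM untreated and 18564, 18812 and 16676 CPM in D30, groups that did not overlap (log2 fold change -0.83 ± 0.08, adjusted p = 3.11e-06). It made up 2.65% to 2.82% of all counts of untreated GIMEN libraries and 1.58% to 1.72% in D30. The lowest GIMEN library was thus far above every SK-N-AS library, and untreated GIMEN exceeded untreated SK-N-AS by a log2 fold change of 9.05 ± 0.23 (adjusted p = 2.52e-15).

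TNC encodes tenascin-C, a hexameric matricellular glycoprotein that is low in most adult tissue and induced in development, wound repair and tumours. It rose with treatment in both lines. Untreated SK-N-AS libraries held 18.7, 17.97, 18.04 and 24.0 CPM, S1D4 73.3, 76.1, 40.7 and 36.1 CPM, S2D4 1076, 1025, 1217 and 58.0 CPM, and S2D30 738, 578, 498 and 801 CPM. All treated libraries were above all untreated ones, but S2D4 replicate 4 lay within the range of S1D4. The rise in S1D4 was 1.498 ± 0.56 on the log2 scale (adjusted p = 0.0408). That call was lost without any 1 of the 4 untreated libraries, without S1D4 replicate 1 and without S1D4 replicate 2 (adjusted p 0.0542 to 0.0969), and it held at adjusted p = 3.30e-05 when S2D4 replicate 4 was kept out of the model. In S2D4 the log2 fold change was 5.39 ± 0.64 (adjusted p = 1.79e-06), and 5.78 (adjusted p = 9.57e-12) without replicate 4. S2D30 was higher than untreated cells by 5.02 ± 0.63 (adjusted p = 2.17e-06). From S2D4 to S2D30 no change was called with all libraries (log2 fold change -0.37, 95% interval -1.49 to 0.75, adjusted p = 0.584), while without S2D4 replicate 4 a fall was called (-0.76, adjusted p = 0.00739). GIMEN held 66.5, 62.5 and 72.3 CPM untreated and 592, 734 and 684 CPM in D30, without overlap (3.29 ± 0.10, adjusted p = 1.48e-10). The 30-day groups of the lines overlapped, and their difference was not called (0.08, 95% interval -0.23 to 0.38, adjusted p = 0.654).

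FN1 and TNC thus moved in opposite directions, and their ratio within a library does not depend on scaling. Per count of FN1, untreated SK-N-AS libraries held 0.273 to 0.378 counts of TNC, S1D4 4.37 to 5.26, S2D4 24.5 to 80.3 and S2D30 297 to 403. In S2D4 replicate 4 both genes were low, so its ratio, the lowest of its group, was still above every S1D4 library. GIMEN moved the same way from a far lower ratio, 0.00206 to 0.00225 untreated and 0.0319 to 0.0410 in D30.

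THBS1 and THBS2 encode thrombospondin-1 and thrombospondin-2, trimeric inhibitors of angiogenesis that bind CD47, CD36 and LRP1, and thrombospondin-1 also activates latent TGF-beta. THBS1 rose early in SK-N-AS and was low again at 30 days. It was at 56.3, 51.6, 20.7 and 25.8 CPM in untreated SK-N-AS, 144, 129, 226 and 224 CPM in S1D4, 250.4, 271, 256 and 247 CPM in S2D4, and 23.9, 21.9, 18.6 and 22.6 CPM in S2D30. In untreated and S1D4 groups, replicates 1 and 2 differed from replicates 3 and 4 and in opposite directions. The rise was 2.20 ± 0.27 on the log2 scale in S1D4 (adjusted p = 1.01e-05) and 2.69 ± 0.27 in S2D4 (adjusted p = 2.95e-07), and S2D30 was below S2D4 by -3.56 ± 0.29 (adjusted p = 4.19e-08). S2D30 was called lower than untreated cells (-0.87 ± 0.27, adjusted p = 0.00794), although the groups overlapped, and without untreated replicate 1 the value was -0.59 (adjusted p = 0.0525). In GIMEN it fell from 1607, 1565 and 1636 CPM to 363, 354 and 321 CPM (-2.24 ± 0.07, adjusted p = 2.67e-10).

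THBS2 followed another course and was highest in S2D30. Untreated SK-N-AS libraries held 1.01, 0.656, 0.382 and 0.183 CPM, S1D4 0.562, 0.518, 1.56 and 1.38 CPM, S2D4 20.9, 20.6, 24.1 and 2.46 CPM, and S2D30 37.8, 51.7, 47.6 and 34.2 CPM. Untreated and S1D4 libraries overlapped and no change was called between them (log2 fold change 0.76 ± 0.71, adjusted p = 0.426). The rise was 4.82 ± 0.62 in S2D4 (adjusted p = 3.96e-06), 5.18 without replicate 4 (adjusted p = 1.36e-09), and 6.15 ± 0.63 in S2D30 (adjusted p = 1.91e-07). Without untreated replicate 1, the highest untreated library, these were 5.44 in S2D4 and 6.77 in S2D30. The further rise from S2D4 to S2D30 (1.34 ± 0.47, adjusted p = 0.0267) was lost without S2D30 replicate 2 or 3 (1.23 and 1.28, adjusted p = 0.0658 and 0.0574), with only these 2 groups in the model (adjusted p = 0.0564) and with DESeq2 (adjusted p = 0.0537). GIMEN libraries rose from 5.67, 6.29 and 4.97 CPM to 15.4, 15.2 and 14.9 CPM (1.39 ± 0.12, adjusted p = 1.40e-06). Per count of THBS1 there were 0.00709 to 0.0185 counts of THBS2 in untreated SK-N-AS and 1.52 to 2.56 in S2D30, the group where THBS2 outnumbered THBS1. In GIMEN the ratio was 0.00304 to 0.00402 untreated and 0.0424 to 0.0464 in D30.

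**Figure D2:**
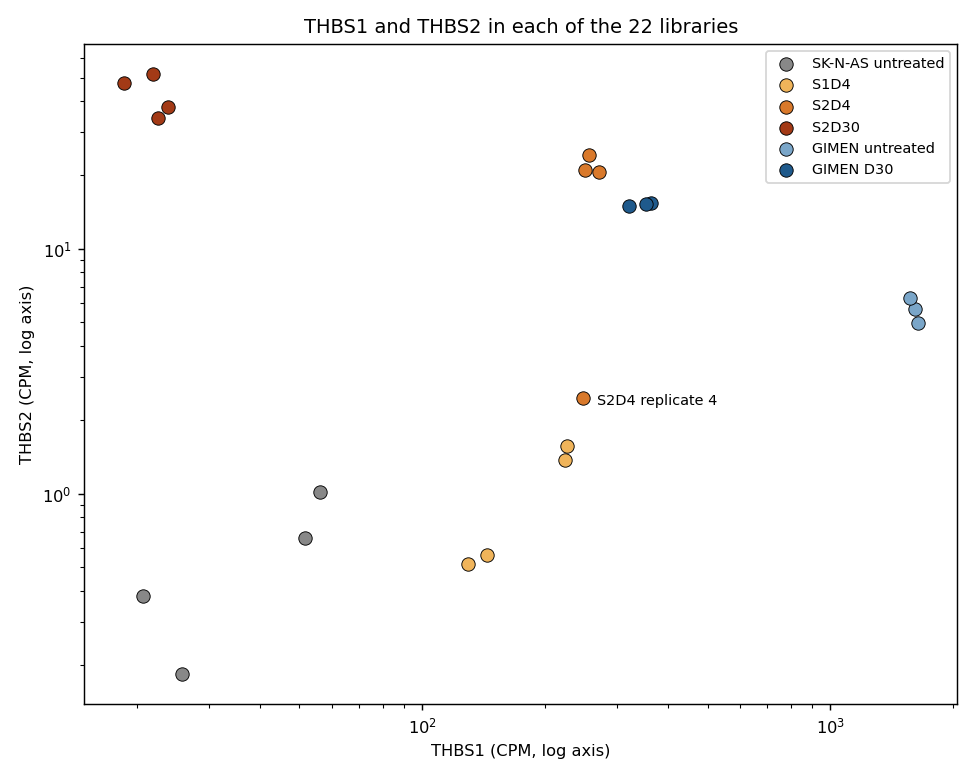
THBS2 against THBS1 in each of the 22 libraries, both in CPM on log axes, coloured by group. S1D4 lies to the right of untreated SK-N-AS, and S2D4 above S1D4, with its replicate 4 the lowest of S2D4 at 2.46 CPM of THBS2. S2D30 lies at the upper left with 18.6 to 23.9 CPM of THBS1.

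SPARC and VCAN were lower in each treated group of both lines. SPARC was at 270, 214, 183 and 157 CPM in untreated SK-N-AS, 97.5, 87.7, 79.1 and 79.0 CPM in S1D4, 108, 114, 105 and 95.2 CPM in S2D4, and 48.9, 56.9, 54.6 and 47.0 CPM in S2D30. Every treated library was below every untreated one. The log2 fold change was -1.29 ± 0.14 (adjusted p = 2.86e-06) in S1D4, -1.002 ± 0.14 (adjusted p = 8.48e-06) in S2D4 and -2.03 ± 0.14 (adjusted p = 1.68e-09) in S2D30. GIMEN fell from 1422, 1368 and 1371 CPM to 693, 704 and 666 CPM (-1.04 ± 0.06, adjusted p = 4.82e-08). VCAN encodes versican, a large chondroitin sulfate proteoglycan that binds hyaluronan. It held 135.5, 142, 113 and 233 CPM in untreated SK-N-AS and 30.6, 19.8, 16.5 and 34.0 CPM in S2D30 (-2.66 ± 0.25, adjusted p = 5.71e-08), with 42.2 to 67.6 CPM in the S1D4 and S2D4 libraries (-1.56 ± 0.24 and -1.35 ± 0.24, adjusted p = 7.83e-05 and 9.85e-05). GIMEN held 490, 462 and 492 CPM untreated and 161, 171 and 174 CPM in D30 (-1.54 ± 0.06, adjusted p = 2.42e-09).

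TGFBI and POSTN encode related proteins built of fasciclin domains that bind integrins. TGFBI fell in every treated group. Untreated SK-N-AS held 22.7, 18.3, 11.9 and 9.80 CPM, S1D4 2.78 to 4.34 CPM, S2D4 0.271 to 0.659 CPM and S2D30 0.665 to 1.13 CPM. S1D4 was lower by -2.13 ± 0.26 (adjusted p = 1.13e-05), S2D4 by -5.16 ± 0.33 (adjusted p = 1.13e-09) and S2D30 by -4.27 ± 0.31 (adjusted p = 2.12e-09). The small rise from S2D4 to S2D30 (0.89 ± 0.36, adjusted p = 0.0486) was lost without S2D4 replicate 1, 2 or 4 and without S2D30 replicate 1, 3 or 4 (0.70 to 0.94, adjusted p 0.0624 to 0.152). GIMEN fell from 47.0, 46.8 and 44.0 CPM to 2.82, 3.87 and 2.83 CPM (-3.88 ± 0.12, adjusted p = 1.93e-10). POSTN was low throughout. It held 8.93, 7.43, 2.15 and 2.99 CPM in untreated SK-N-AS and 0.324 to 1.25 CPM in S1D4 and S2D4, without overlap (-2.50 ± 0.48, adjusted p = 0.000615, and -2.70 ± 0.49, adjusted p = 0.000150). S2D30 was at the floor, at least 39.0-fold lower than untreated cells when 3 counts per library are taken as the limit, and both GIMEN groups were at the floor, so no fold is given there.

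FBN1 and FBLN1 encode the core protein of elastic-fibre microfibrils and a calcium-binding protein of elastic fibres and basement membranes. The lines differed in which of them they expressed. FBN1 was at 2.003, 2.01, 1.91 and 2.99 CPM in untreated SK-N-AS and 0.544 to 0.878 CPM in S2D30 (-1.60 ± 0.32, adjusted p = 0.000290). It was at 715, 696 and 730 CPM in untreated GIMEN, and at 169, 167 and 182 CPM in D30 (-2.08 ± 0.07, adjusted p = 2.81e-10). In S1D4 it was lower by -1.11 ± 0.31 (adjusted p = 0.00911) and in S2D4 by -0.94 ± 0.31 (adjusted p = 0.0142), a call lost without untreated replicate 4 (-0.76, adjusted p = 0.0536). FBLN1 fell at each stage of SK-N-AS, from 58.3, 53.6, 64.4 and 52.4 CPM untreated to 20.4, 21.3, 12.5 and 11.1 CPM in S1D4, 6.05, 7.38, 6.64 and 11.2 CPM in S2D4 and 4.12, 4.91, 4.58 and 2.78 CPM in S2D30 (-3.84 ± 0.25 for S2D30 against untreated cells, adjusted p = 7.52e-10). S1D4 was lower by -1.84 ± 0.23 (adjusted p = 1.04e-05) and S2D4 by -2.90 ± 0.24 (adjusted p = 2.25e-08). GIMEN held 1.29, 1.52 and 1.53 CPM untreated and 1.997, 1.84 and 1.54 CPM in D30, which was not called different (0.28 ± 0.27, adjusted p = 0.363).

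**Figure D3:**
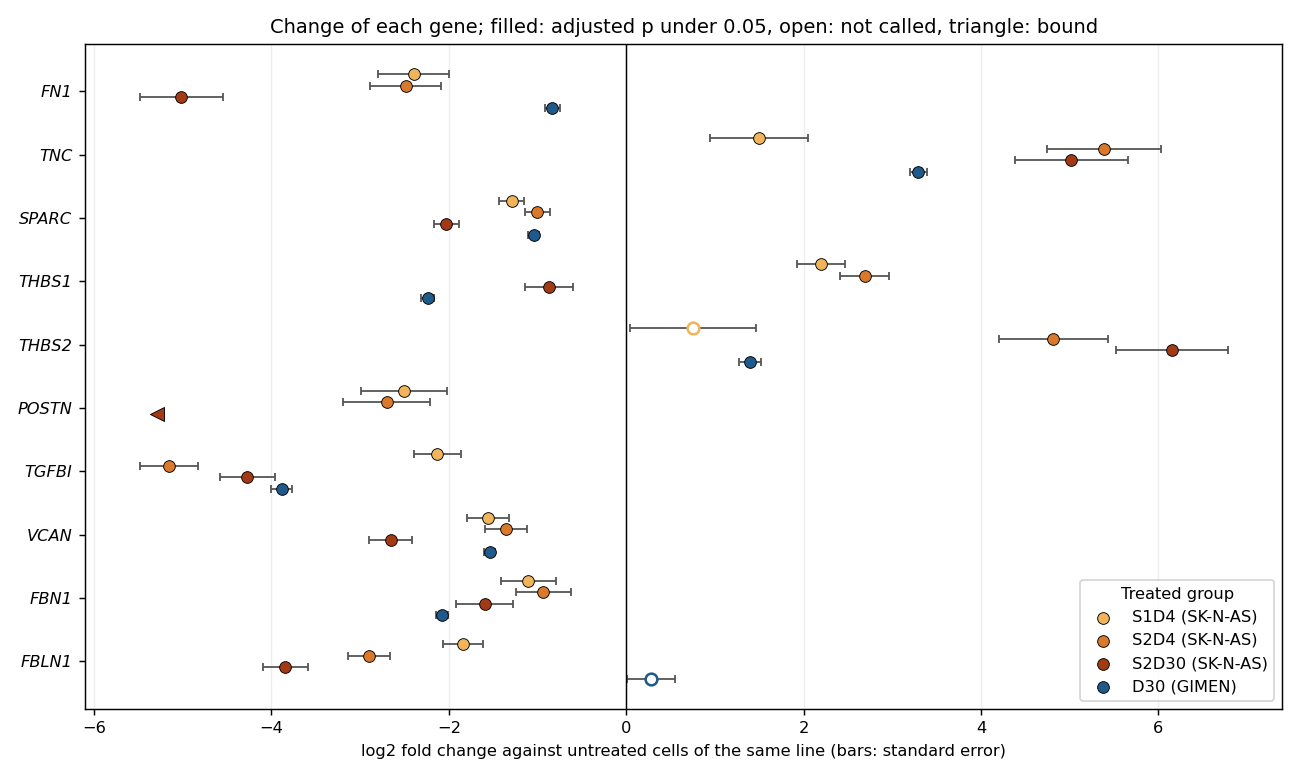
Log2 fold change of each gene against untreated cells of the same line (horizontal axis), with bars for the standard error, for 3 SK-N-AS groups and 1 GIMEN group; filled points had an adjusted p under 0.05 and the triangle is the bound for POSTN in S2D30. TNC is to the right of 0 in all 4 groups, while FN1, SPARC, TGFBI, VCAN and FBN1 are to the left in all 4.

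Leaving out S2D4 replicate 4 changed no member's call in S2D4 against untreated cells. The log2 fold change was then 2.70 for THBS1, -0.95 for SPARC, -1.29 for VCAN, -5.08 for TGFBI, -2.40 for POSTN, -0.70 for FBN1 and -3.13 for FBLN1.

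Counted together, more members were lower than higher after every treatment. In S1D4, 2 of 10 were called higher and 7 lower, where 17.6% of all 15810 genes tested were called higher and 22.4% lower. The median log2 fold change of the members was -1.42, beside -0.01 over all genes. In S2D4, 3 were higher and 7 lower (30.9% and 32.2% of all genes), with a median of -1.18 beside -0.02. The member counts were the same without replicate 4, where 5020 genes over all were called higher and 5520 lower. In S2D30, 2 were higher and 8 lower (33.8% and 36.5%), with a median of -2.34, also with POSTN at its bound, beside -0.03. The step from S1D4 to S2D4 had 2 members higher, TNC and THBS2, and 2 lower, TGFBI and FBLN1 (28.3% and 26.8% of all genes). It also had 2 and 2 without S2D4 replicate 4, where 4656 genes over all were called higher and 4713 lower. From S2D4 to S2D30, THBS2 and TGFBI were higher and 6 members lower (24.4% and 26.9%). Without S2D4 replicate 4, THBS2 alone was higher and 8 members were lower. Over all genes, 4268 were then called higher and 4376 lower, against 3863 and 4248 with that library. In GIMEN, 2 of the 9 members tested were higher and 6 lower (35.5% and 36% of 13517 genes), with a median of -1.04 beside 0.02. These comparisons share their untreated libraries within a line.

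The 30-day change itself differed between the lines for 7 members. The difference, the GIMEN change minus the SK-N-AS change, was tested as an interaction, in which 25.2% of 16246 genes were called higher and 24.5% lower. It was positive for FN1 (4.20 ± 0.28, adjusted p = 4.18e-09), FBLN1 (4.15 ± 0.29, adjusted p = 5.79e-09), VCAN (1.13 ± 0.31, adjusted p = 0.00664) and SPARC (1.01 ± 0.20, adjusted p = 0.000582). FN1, VCAN and SPARC fell in both lines and fell less in GIMEN, and FBLN1 fell in SK-N-AS. The difference was negative for THBS2 (-4.72 ± 0.38, adjusted p = 3.15e-08, and -5.35 without untreated SK-N-AS replicate 1) and TNC (-1.71 ± 0.21, adjusted p = 4.23e-06), which rose less in GIMEN, and for THBS1 (-1.35 ± 0.35, adjusted p = 0.00444). For TNC the call was lost in a model of all 22 libraries (-1.73, adjusted p = 0.0604). TGFBI (0.41, 95% interval -0.47 to 1.28) and FBN1 (-0.45, 95% interval -0.93 to 0.02) were not called, which does not show that they changed alike, and FBN1 was called without S2D30 replicate 3 or untreated SK-N-AS replicate 4. POSTN was left out because 3 of its 4 groups were at the floor.

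Between the untreated lines, 8 members were higher in GIMEN and 2, POSTN and FBLN1, were higher in SK-N-AS, where 35.3% of all genes were called higher in GIMEN and 38.6% lower. FBN1 differed by 8.32 ± 0.13 (adjusted p = 2.02e-17) and THBS1 by 5.38 ± 0.28 (adjusted p = 1.66e-11), next to FN1 above. FBLN1 differed by -5.29 ± 0.19 (adjusted p = 1.37e-13). Between the 30-day groups 6 members were higher in GIMEN and 2, THBS2 and FBLN1, were lower (34% and 38% of all genes). FN1 then differed by 13.25 ± 0.28 (adjusted p = 4.09e-16), and THBS2, which untreated GIMEN had expressed more, by -1.46 ± 0.22 (adjusted p = 1.60e-05).

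Related matrix genes moved in both directions, and several of their counts were near the shares of all genes. Among 48 other matrix glycoproteins, 39 were tested in SK-N-AS. In S1D4, 8 rose (20.5%, beside 17.6% of all genes) and 15 fell (38.5% beside 22.4%). With a minimum of 1 on the log2 scale, 4 rose and 13 fell, where 953 and 989 of all 15810 genes did. In S2D4, 12 rose (30.8% beside 30.9%) and 17 fell (43.6% beside 32.2%), and in S2D30, 14 rose (35.9% beside 33.8%) and 18 fell (46.2% beside 36.5%). TNXB, another tenascin, was at 48.3 CPM in S1D4 and 11.04 CPM untreated (2.09 ± 0.24, adjusted p = 5.34e-06), while FBLN2, another fibulin, fell by 2.92 on the log2 scale in the same cells (adjusted p = 6.03e-08). SMOC1, a SPARC relative, rose in S2D4 from 0.266 to 17.1 CPM (5.94 ± 0.77, adjusted p = 4.44e-06). In S2D30, the largest rise was that of NOV (CCN3), a matricellular protein, from 0.474 to 126 CPM (8.06 ± 0.44, adjusted p = 8.36e-11). MFAP4, a microfibril-associated protein, had the largest fall of the list in S2D4 and S2D30, from 187 CPM untreated to 6.73 and 3.67 CPM. In S2D4 replicate 4 it was at 19.1 CPM, and without that library the S2D4 mean was 2.61 CPM and the log2 fold change -6.19 in place of -4.77. In GIMEN, 31 were tested, of which 12 rose (38.7% beside 35.5% of all genes) and 15 fell (48.4% beside 36%), among them MGP, an inhibitor of calcification (8.33 to 38.1 CPM), and SPOCK1, a proteoglycan related to SPARC (760 to 54.3 CPM).

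Of 21 genes for proteoglycans and hyaluronan handling, 14 were tested in SK-N-AS. In S1D4, 2 rose (14.3% beside 17.6% of all genes) and 3 fell (21.4% beside 22.4%). With a minimum of 1 on the log2 scale, 2 rose and 1 fell, where 953 and 989 of all 15810 genes did. In S2D4, 6 rose (42.9% beside 30.9%) and 4 fell (28.6% beside 32.2%), and in S2D30, 6 rose (42.9% beside 33.8%) and 5 fell (35.7% beside 36.5%). BCAN, the brain proteoglycan brevican, rose in S1D4 from 13.4 to 88.2 CPM (2.69 ± 0.32, adjusted p = 6.91e-06). CD44, a hyaluronan receptor, rose in S2D4 from 8.77 to 73.3 CPM, and HAS1, a hyaluronan synthase, in S2D30 from 0.156 to 10.3 CPM. DCN, the collagen-binding proteoglycan decorin, fell in all 4 treated groups, from 40.7 CPM to 10.98, 2.07 and 2.50 CPM in SK-N-AS and from 12.3 to 0.354 CPM in GIMEN. Without S2D4 replicate 4 its S2D4 mean was 1.35 CPM and the log2 fold change -4.94 in place of -4.28. In GIMEN 12 of the list were tested, of which 4 rose (33.3% beside 35.5% of all genes) and 7 fell (58.3% beside 36%). With that minimum 1 rose and 6 fell, where 1599 and 1738 of all 13517 genes did. HAPLN3, a hyaluronan link protein, rose there from 13.4 to 27.3 CPM.

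Receptors of the members, 15 genes, also moved both ways. Of 14 tested in SK-N-AS, 4 rose (28.6% beside 17.6% of all genes) and 5 fell (35.7% beside 22.4%) in S1D4. In S2D4, 7 rose (50% beside 30.9%) and 6 fell (42.9% beside 32.2%), and in S2D30, 7 rose (50% beside 33.8%) and 4 fell (28.6% beside 36.5%). With a minimum of 1 on the log2 scale, 3 rose and 1 fell in S1D4, where 953 and 989 of all 15810 genes did. In S2D4, 4 rose and 4 fell with it, beside 2096 and 2481 of all genes. ITGB3, the beta subunit of the integrin that binds fibronectin and many other ligands, was at 1.10 CPM untreated, 15.4 CPM in S2D4 and 43.5 CPM in S2D30 (5.23 ± 0.31, adjusted p = 2.14e-10). In S1D4, SDC4, a syndecan that works with integrins on fibronectin, rose from 22.8 to 61.3 CPM. SDC1, another syndecan, fell from 26.9 to 7.79 CPM in S1D4 and 3.47 CPM in S2D30, and LRP1, an endocytic receptor of thrombospondins, from 135 to 35.8 CPM in S2D4. In GIMEN 7 of 13 rose (53.8% beside 35.5% of all genes) and 4 fell (30.8% beside 36%). With that minimum 2 rose and 2 fell, where 1599 and 1738 of all 13517 genes did. ITGB8 was at 14.7 CPM untreated and 73.3 CPM in D30, and ITGA4 at 153.5 and 52.4 CPM.

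Enzymes that crosslink or cleave the matrix made up a list of 13 genes, all tested in SK-N-AS. In S1D4, 3 rose (23.1% beside 17.6% of all genes) and 4 fell (30.8% beside 22.4%). With a minimum of 1 on the log2 scale, 0 rose and 2 fell, where 953 and 989 of all 15810 genes did. In S2D4, 4 rose (30.8% beside 30.9%) and 5 fell (38.5% beside 32.2%). With that minimum 2 rose and 5 fell in S2D4, beside 2096 and 2481 of all genes. In S2D30, 4 rose (30.8% beside 33.8%) and 6 fell (46.2% beside 36.5%). ADAMTS5, a protease that cleaves versican and other proteoglycans, rose from 0.268 CPM to 14.9 CPM in S2D4 and 74.9 CPM in S2D30 (7.97 ± 0.60, adjusted p = 4.13e-09). ADAMTS1, a protease with overlapping substrates, was at 14.6 CPM untreated and 27.6 CPM in S1D4, and in GIMEN at 20.3 CPM untreated and 147 CPM in D30 (2.83 ± 0.09, adjusted p = 2.25e-10). LOXL1 and LOXL3, of the lysyl oxidase family that crosslinks collagen and elastin, had the largest falls in S2D4 (31.4 to 6.70 CPM) and S2D30 (21.3 to 3.42 CPM). LOX itself fell in GIMEN from 203 to 15.7 CPM (-3.71 ± 0.22, adjusted p = 5.50e-08), where 2 of 11 tested rose (18.2% beside 35.5% of all genes) and 6 fell (54.5% beside 36%).

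Without S2D4 replicate 4, the S2D4 counts of these 4 lists were 12 higher and 15 lower for other glycoproteins, 7 and 4 for proteoglycans, 7 and 6 for receptors and 5 and 5 for enzymes. Over all genes, 5020 were then called higher and 5520 lower, against 4879 and 5097 with that library, so more genes were called in general. The log2 fold change was then 6.35 for SMOC1, 3.20 for CD44, 3.95 for ITGB3, 5.998 for ADAMTS5, -1.89 for LRP1 and -2.17 for LOXL1.

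**Figure D4:**
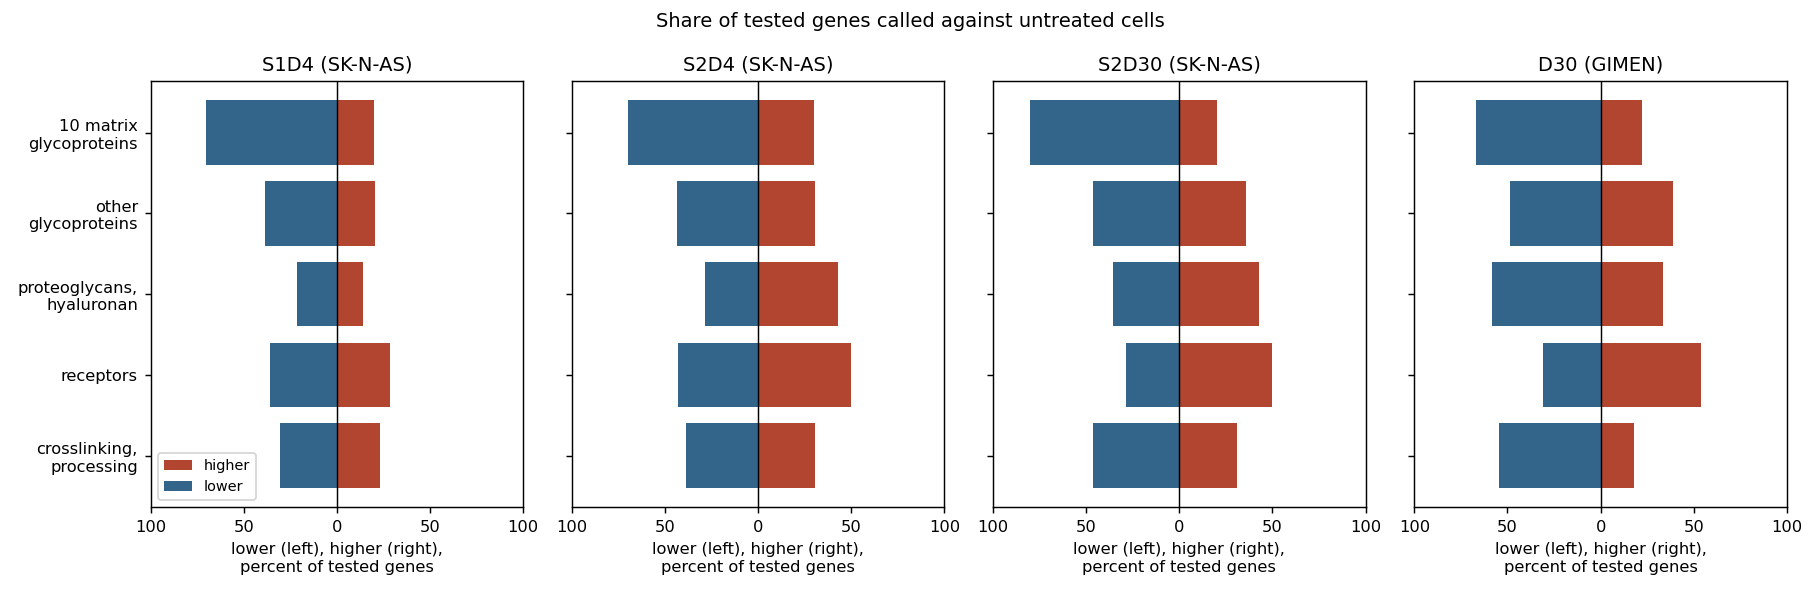
Share of tested genes of each list called higher (right) or lower (left) than untreated cells, in percent, for the 10 matrix glycoproteins and 4 related lists, in 3 SK-N-AS groups and GIMEN D30. The 10 glycoproteins have 7, 7, 8 and 6 genes lower against 2, 3, 2 and 2 higher, and the receptors have 7 higher in each of S2D4, S2D30 and GIMEN D30.

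For each member with at least 10 CPM in 1 group, the genes with the most similar profile over the 6 group means were found by the root mean square difference of centred log2 CPM, among 11626 genes. With 6 points that share scaling, this is a description. TNC was most like SGK1, a serum- and glucocorticoid-regulated kinase (difference 0.19; 5.69, 15.3, 144, 203, 15.1 and 149 CPM in SK-N-AS untreated, S1D4, S2D4, S2D30, GIMEN untreated and D30), and TMEM158 (0.28). THBS2 was most like IL6R, the interleukin-6 receptor (0.45), and GPAT3 (0.54). FBN1 was most like CAV1, the caveolae protein caveolin-1 (0.31), and ENPP1 (0.33). VCAN was nearest to the syndecan gene SDC1 (0.29) and UBE2E3 (0.32), SPARC to CERKL (0.21) and KDELC2 (0.30), TGFBI to KCNK2 (0.46) and MAP2K6 (0.57), and FBLN1 to the mechanosensitive channel gene PIEZO2 (0.18) and MARC1 (0.29). THBS1 and FN1 had no near profile. The nearest genes were RDH5 (0.74) and CLU (0.87) for THBS1, and the collagen gene COL1A2 (1.19) and SCUBE3 (1.38) for FN1. With a prior count of 0.5, COL1A2, SCUBE3 and MARC1 were no longer the genes found.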

How the data were processed

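Total RNA of 22 libraries was treated with DNase and sequenced as 150-base pairs on an Illumina HiSeq X, per the labels' protocols. The authors deposited raw counts per gene, 1 column per library, whose aligner, annotation and strand setting are not given in the sources used here. Totals of 16456484 to 37506800 counts set the precision. Reads carry no molecular identifiers, so the floor of 3 counts covers counting error only. One column whose name repeats the line's name was matched by its title.

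Groups came from the labels. In R 4.3.3, edgeR 4.0.16 kept genes by filterByExpr (minimum count 10, minimum total 15), scaled by TMM and tested with glmQLFTest, in models of 16 SK-N-AS libraries (15810 genes), 6 GIMEN libraries (13517) and the 14 untreated and 30-day libraries (16246). Benjamini-Hochberg adjusted p-values had a threshold of 0.05. Errors of fold changes are standard errors of the fit. Printed CPM used 1 TMM scaling of all 22 libraries. The script was tested on simulated data, where the interaction test missed more of the smaller changes than the tests within a line did. All members were named. Of each related list, the largest rise and fall against untreated cells were named, with adjusted p under 0.05, at least 10 CPM in 1 group and no overlap. In addition, the 2 nearest profiles of each member were named. Members, gene lists and tests were chosen with earlier results of these data known. Of the CCN genes, 5 were found under older symbols. Promoter windows are from RefSeq (GRCh38.p14), gene models from GENCODE 29. Alternatives were DESeq2 1.42.0, its size factors, upper-quartile factors, other filters, a fold minimum, a replicate block, other sets of libraries in the model and leaving out each library.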

Additional observations from a re-analysis of the deposited data

Results flagged for a closer look

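Of 39 groups of 4 values tested for a single distant library, 5 had one. Chance gives about 1 in 20 for a single group, but the 39 share the same 16 libraries and are not independent. In untreated SK-N-AS, replicate 4 was the high value of FN1 (87.8 CPM, next 54.1), TNC (23.97 CPM, next 18.7) and FBN1 (2.99 CPM, next 2.01). In S2D4, replicate 4 was the low value of TNC (57.97 CPM, next 1025) and THBS2 (2.46 CPM, next 20.6).

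The 30-day change differed between the lines, by the interaction test, for 7 members, 4 higher and 3 lower. Over all 16246 genes tested, 25.2% were called higher and 24.5% lower, so such a difference was common. As GIMEN minus SK-N-AS on the log2 scale, the difference was 4.20 for FN1, 4.15 for FBLN1, 1.13 for VCAN, 1.01 for SPARC, -1.35 for THBS1, -1.71 for TNC and -4.72 for THBS2.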

How the results depend on the processing

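Of the members' log2 fold changes under all alternatives, 1426 kept direction and call, 28 lost the call, 7 gained it and 8 reversed, all of the last in differences that were not called. The reversed ones were TNC between the 30-day groups (-0.11 with a replicate block, -0.034 with upper-quartile factors, -0.040 to 0.19 when a library was left out), and, from S1D4 to S2D4 with a library left out, FN1 (-0.28 to 0.26), POSTN (-0.38 to 0.11) and FBN1 (-0.051 to 0.40). In S1D4, 1 member was called higher with a replicate block or with a term, added after the data were seen, for replicates 3 and 4 of the untreated and S1D4 groups, and 1 to 2 when a library was left out. From S2D4 to S2D30, 1 was called higher with a log2 fold change of at least 1, with DESeq2, with no filter, with only these 2 groups or with a replicate block, and 0 to 2 when a library was left out. From S1D4 to S2D4, 4 were called higher with only these 2 groups. The causes were not tested.

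A minimum of 1 on the absolute log2 scale left, over all genes, 953 higher and 989 lower in S1D4, 2096 and 2481 in S2D4, 2807 and 3038 in S2D30, 1406 and 2019 from S1D4 to S2D4, 1603 and 1506 from S2D4 to S2D30, 1599 and 1738 in GIMEN, 2265 and 1970 for the interaction, 3008 and 3845 between untreated lines and 2857 and 3617 between the 30-day groups. Replicate numbers were taken to pair libraries only if every same-numbered pair of deviations correlated above 0.1. Untreated and S1D4 libraries missed this by 1 pair (0.26, 0.28, 0.03 and 0.29 for replicates 1 to 4), and those of GIMEN lay at -0.02 to 0.02. The main fits therefore used no pairing, and a replicate block was fitted only as an alternative. With a replicate block the S1D4 rise of TNC had an adjusted p of 0.0743 in edgeR, and of 0.05665 with the term for replicates 3 and 4. POSTN, FBN1 in SK-N-AS and FBLN1 in GIMEN had few counts.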

Other observations

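Endothelial, Schwann and glial, and muscle markers were each summed per library. Over 6 endothelial genes, the level was 4.16 to 11.6 CPM in untreated SK-N-AS and 2.87 to 5.18 CPM in S1D4. S2D4 had 0.84 to 2.42 CPM and S2D30 4.10 to 8.30 CPM. GIMEN had 4.27 to 4.75 CPM untreated and 25.1 to 31.0 CPM in D30, where CDH5, VWF and TEK were at the floor. Of the 2 tested in GIMEN, 1 was called higher (50% beside 35.5% of all genes) and 1 lower (50% beside 36%). The sum over 7 Schwann and glial genes was 2.43 to 3.67 CPM in untreated SK-N-AS and 7.18 to 9.84 CPM in S1D4. It was 1.91 to 4.57 CPM in S2D4 and 1.49 to 2.04 CPM in S2D30. GIMEN had a sum of 8.53 to 9.03 CPM untreated and 5.71 to 7.32 CPM in D30. Over 6 skeletal and smooth muscle genes it was 1.18 to 4.50 CPM in SK-N-AS, 20.1 to 23.2 CPM in untreated GIMEN and 6.98 to 8.22 CPM in D30, with MYOD1 and MYOG at the floor in all groups.

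Of the 15 mesenchymal markers, 13 were tested in SK-N-AS. In S1D4, 4 of these rose (30.8% beside 17.6% of all genes) and 5 fell (38.5% beside 22.4%). In S2D4, 9 rose (69.2% beside 30.9%) and 3 fell (23.1% beside 32.2%). In S2D30, 9 rose (69.2% beside 33.8%) and 3 fell (23.1% beside 36.5%). Of 10 tested in GIMEN, 3 rose (30% beside 35.5%) and 6 fell (60% beside 36%) in D30. PRRX1, a homeobox factor of the mesenchymal state, had 25.2 ± 2.07 CPM without treatment, 134 ± 5.13 CPM in S1D4, 201 ± 58.8 CPM in S2D4 and 79.8 ± 7.27 CPM after 30 days of stage 2 (SD, n = 4 each). PRRX1 was chosen after its values were seen, and it does not stand for the list, of which 5 fell in S1D4.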
